A study of Medicago truncatula with 15 samples.

Results

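Leaf transcript levels were compared between *Mtsoc1a* and wild-type (WT) Medicago (*Medicago truncatula*) plants at 15 days of age, with 3 libraries per genotype. These 6 leaf libraries were chosen by their sample labels out of 15 libraries in the series. The other 9 were shoot apex libraries, with 3 each of WT and *Mtsoc1a* at 15 days and 3 of a *Mtsoc1a Mtsoc1b Mtsoc1c* triple mutant at 83 days. WT was ecotype R108, and *Mtsoc1a* carried a *Tnt1* retrotransposon insertion in *MtSOC1a* in the same background. All plants received 3 weeks of vernalization as germinated seed, were grown in 16 h light at 22 °C and were harvested 4 h after dawn. One leaf library was the pooled RNA of 2 fully expanded trifoliate leaves, 1 from each of 2 plants, and 1 apex library pooled 3 plants. *Mtsoc1a* was represented by 1 insertion line, so an effect of the insertion in *MtSOC1a* and an effect of any other difference between this line and WT cannot be told apart. In bulk leaf tissue, fewer cells that express a gene and less RNA per cell cannot be told apart either.

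SOC1 proteins are MADS-box transcription factors. In Arabidopsis, SOC1 integrates signals from photoperiod, vernalization, gibberellin and plant age and promotes flowering through genes such as *LFY* and *AP1*, chiefly at the shoot apex. The leaf is where day length is perceived and where *FT* genes, which encode the mobile flowering signal, are expressed under inductive conditions. The leaf comparison addresses which transcripts differed with loss of *MtSOC1a* in an organ other than the apex.

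Estimated counts per leaf library came to 31134743 to 38896407. Of 50021 loci in the annotation used, 27038 had a count in at least 1 leaf library and 19706 had enough counts to be tested. A locus here is the sum of its transcripts. Levels are CPM, counts scaled to a common library size and by TMM over the 6 leaf libraries, and differ between genes also with transcript length. Adjusted p values are Benjamini-Hochberg values over all loci tested, from edgeR's quasi-likelihood test with n = 3 per genotype unless DESeq2 is named, and calls required an adjusted p no higher than 0.05 together with a 2-fold or larger change. Nothing in the sources used here says that libraries came from separate sowings, so these p values measure the spread between pooled leaf samples. Leaf libraries correlated at 0.969 to 0.987 with each other (log2(CPM + 1)). The first principal component, with 38.3% of the variance, set *Mtsoc1a* replicate 2 apart (43.8, against -26.6 to 10.7 in the other 5 libraries) and did not separate the genotypes. The second, with 27.3%, separated them, from -32.1 to 1.47 in *Mtsoc1a* and from 4.75 to 27.6 in WT. The labelled tissue was checked with apex, flower and photosynthesis genes. *LFY* had 0 counts in all 6 leaf libraries and 102 to 207 in apex libraries of 15-day-old plants. The meristem marker *HDL* also had 0 in leaf, but only 0 to 14 in that apex, so it says little. Loci listed by the study under photosynthesis summed to 4586 to 9971 CPM in leaf and 237 to 413 CPM in that apex (scaled over all 15 libraries). *AP1*, *AP3b* and *PI* had 15 to 90, 415 to 603 and 0 to 1 counts in leaf, and 0 to 140, 78 to 221 and 0 to 31 in that apex. The floral genes *AGa* and *SEP3a* had 168 to 360 and 118 to 331 counts in leaf libraries, overlapped between the genotypes, and were higher than in the apex of these plants, where they had 0 to 10 and 9 to 20 counts.

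*MtSOC1a*, the gene that carries the insertion, was nearly undetected in *Mtsoc1a* leaves. At its locus Medtr7g075870, *Mtsoc1a* leaves gave 10, 4 and 0 counts, whereas WT leaves gave 220, 203 and 181. The groups did not overlap, and the log2 fold change was -5.36 (SE 0.64, adjusted p = 0.0182). As a ratio of summed counts, WT leaves held 42.2 times the level of *Mtsoc1a* leaves (95% interval 25.0 to 77.7, counting error only). The direction was the same in every fit run. The adjusted p was 0.0566 without *Mtsoc1a* replicate 2 and 0.0794, 0.0596 and 0.0883 without WT replicates 1, 2 and 3, and DESeq2 gave 4.07e-21. Its transcripts Medtr7g075870.1 and Medtr7g075870.2, tested apart, had log2 fold changes of -5.27 and -5.41 and were not called by edgeR, while DESeq2 gave adjusted p values of 1e-11 and 8.46e-06. In WT, the mean level of the locus was 8.95 ± 0.45 CPM in leaf and 15.3 ± 3.16 CPM in apex (SD, n = 3, scaled over all 15 libraries). Of the 6 loci on either side of *MtSOC1a* in the order of the deposited table, 8 were tested and none was called, with log2 fold changes from -0.31 to 0.43.

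The other SOC1 paralogs were low in leaf and gave no call. *MtSOC1b* (Medtr8g033250) had 7, 18 and 9 counts in *Mtsoc1a* leaf and 4, 17 and 9 in WT leaf (log2 fold change 0.19, SE 0.79). For *MtSOC1c* (Medtr8g033220), *Mtsoc1a* leaf libraries had 52, 108 and 61 counts and WT leaf libraries 69, 131 and 63 (log2 fold change -0.22, SE 0.44). Values of the genotypes overlapped for both genes, and with these standard errors a moderate difference was not detectable at this depth. In the apex, counts of *MtSOC1b* were 14, 18 and 30 for *Mtsoc1a* and 169, 69 and 144 for WT, with no overlap. Its change was -2.56 on the log2 scale there (SE 0.62), with an adjusted p of 0.213, and the leaf effect minus the apex effect was 2.74 (SE 0.90, adjusted p = 0.388). The reference gene *PP2A* (Medtr6g084690) was at 82.5 ± 2.90 CPM in *Mtsoc1a* leaf and 79.1 ± 2.26 CPM in WT leaf (SD, n = 3).

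**Figure D1:**
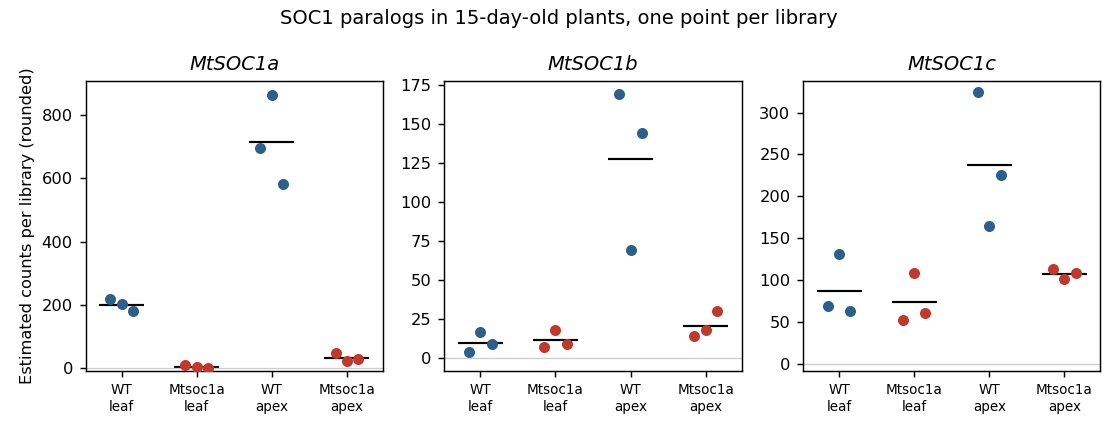
Estimated counts per library (vertical axes, different ranges) of *MtSOC1a*, *MtSOC1b* and *MtSOC1c* in leaf and apex of 15-day-old plants. Each point is 1 library (blue WT, red *Mtsoc1a*) and each bar the mean of 3. *MtSOC1a* was at 0 to 10 counts in *Mtsoc1a* leaf against 181 to 220 in WT leaf, while the leaf points of the other paralogs overlapped.

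In leaf, 38 loci were higher and 9 were lower in *Mtsoc1a* than in WT, which is 0.239% of the loci tested (0.193% higher and 0.0457% lower). In all 47 the 3 *Mtsoc1a* libraries did not overlap the 3 WT libraries, which was also the case for 1733 loci higher and 1634 loci lower over all loci tested. The higher loci had log2 fold changes from 1.03 to 4.09 with a median of 1.61, and 14 of the 38 changed more than 4-fold. The median of the 9 lower loci was -1.41, and that of all loci tested was 0.00. With the adjusted p alone, 55 loci were higher and 22 lower (0.391%). DESeq2 called 133 higher and 95 lower (1.16%), and all 47 loci were among them. A fit with the replicate number as a block called 154 higher and 103 lower, with 46 of the 47 among them. The number of calls rested on single libraries. It was 74 without *Mtsoc1a* replicate 1, 11 without *Mtsoc1a* replicate 3, and 16, 25 and 20 without WT replicates 1, 2 and 3. All 47 loci kept their direction in each of 12 alternative fits, and 9 kept their call in all 12. These fits reuse the same counts, and the genotypes did not overlap at these loci, so the kept direction is not separate evidence.

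**Figure D2:**
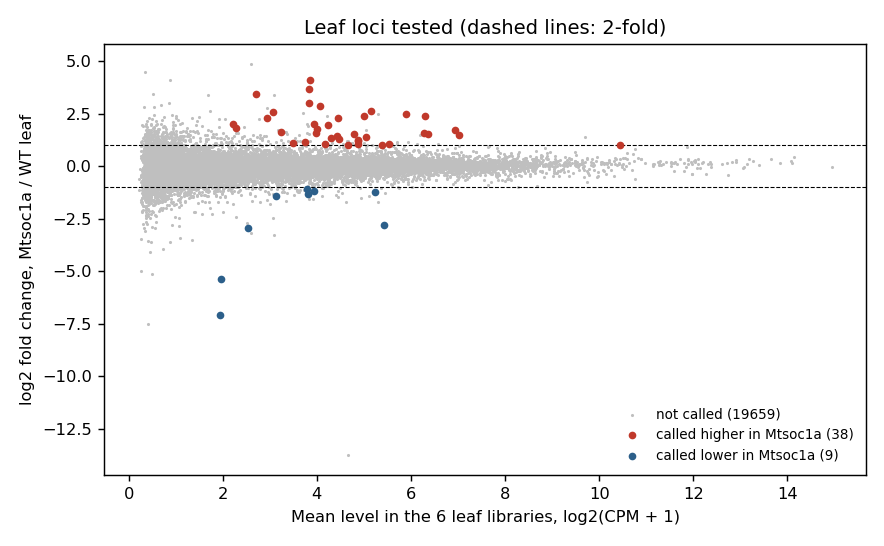
Mean level of each tested locus over the 6 leaf libraries (horizontal axis, log2(CPM + 1)) against its log2 fold change between *Mtsoc1a* and WT leaf (vertical axis). Red points are the 38 loci called higher and blue points the 9 called lower. Dashed lines mark a 2-fold change, and called loci span low to high levels.

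The 9 loci that kept their call in every alternative fit were all higher in *Mtsoc1a*. Their identifiers carry no gene name here. Medtr3g061170 was at 25.5, 20.8 and 24.5 CPM in *Mtsoc1a* leaf and at 2.83, 2.96 and 2.89 CPM in WT leaf (log2 fold change 3.02, SE 0.14, adjusted p = 0.000128). Medtr2g102370 was at 37.4, 33.9 and 32.5 CPM against 6.96, 7.03 and 6.97 CPM (2.31, SE 0.12, adjusted p = 0.000128). For this pair of loci the WT libraries lay within a few percent of each other and every *Mtsoc1a* library was far above them. Medtr6g090460 was at 20.2, 27.1 and 26.2 CPM in *Mtsoc1a* and at 1.39, 1.32 and 2.99 CPM in WT (3.70, SE 0.32, adjusted p = 0.00484). Medtr1g015650 was at 7.0, 10.1 and 13.1 CPM in *Mtsoc1a* and at 1.05, 0.821 and 0.903 CPM in WT (3.43, SE 0.28, adjusted p = 0.00344). Medtr2g013140 was at 20.6, 23.7 and 39.03 CPM against 3.13, 3.69 and 4.42 CPM (2.89, SE 0.26, adjusted p = 0.0054). In Medtr1g015650 and Medtr2g013140 the spread lay mainly among the *Mtsoc1a* libraries, with replicate 3 the highest.

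The remaining 4 of these loci were of a similar kind. Medtr8g465910 was at 9.09, 12.9 and 15.8 CPM in *Mtsoc1a* and at 1.91, 1.93 and 2.46 CPM in WT (2.58, SE 0.24, adjusted p = 0.0054). Medtr2g022460 was at 80.7, 102 and 115 CPM against 17.9, 14.5 and 20.3 CPM (2.50, SE 0.17, adjusted p = 0.00136). The study's supplementary lists place Medtr2g022460 under hemicellulose and polysaccharide metabolism, and predict transmembrane transport for Medtr8g085650 and a response to wounding for Medtr8g465910. Medtr5g022210 was at 110, 142 and 140 CPM in *Mtsoc1a* and at 22.4, 21.0 and 31.6 CPM in WT (2.38, SE 0.18, adjusted p = 0.00238). Medtr8g085650 was at 215, 161 and 180 CPM against 56.0, 47.7 and 63.1 CPM (1.74, SE 0.15, adjusted p = 0.00436). The lowest *Mtsoc1a* library was more than 2-fold above the highest WT library at each of these 4 loci.

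Among the next higher loci by p, Medtr4g011900 was at 213, 155 and 199 CPM in *Mtsoc1a* leaf and at 69.7, 64.2 and 69.1 CPM in WT leaf (1.48, SE 0.14, adjusted p = 0.0054). Medtr4g130730 was at 29.2, 27.3 and 24.5 CPM against 11.9, 10.0 and 9.96 CPM (1.34, SE 0.13, adjusted p = 0.0061). Each of these lost its call by a small margin when 1 library was left out. The adjusted p was 0.0576 for Medtr4g011900 without *Mtsoc1a* replicate 3 and 0.05003 for Medtr4g130730 without WT replicate 3. Medtr6g051780 was at 38.8, 37.9 and 42.7 CPM against 16.5, 15.1 and 20.01 CPM (1.21, SE 0.13, adjusted p = 0.0109). Medtr8g045735 was at 127, 98.2 and 138 CPM against 47.04, 34.3 and 44.9 CPM (1.52, SE 0.17, adjusted p = 0.0109). These kept their call in 4 of the 6 fits with 1 library left out, with adjusted p values of 0.0953 for both without *Mtsoc1a* replicate 3, 0.0768 for Medtr6g051780 without WT replicate 1 and 0.0652 for Medtr8g045735 without WT replicate 3. Among called loci, the largest increase, chosen here after its values were seen, was in Medtr3g064350, at 13.1, 29.4 and 34.1 CPM in *Mtsoc1a* and 0.953, 1.23 and 2.37 CPM in WT (4.09, SE 0.47, adjusted p = 0.0238). Its call held only without *Mtsoc1a* replicate 1, and the adjusted p was 0.05003 to 0.112 without each of the others. The other 38 loci of the 47 each lost their call in at least 1 alternative fit, with adjusted p values of up to 0.272.

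**Figure D3:**
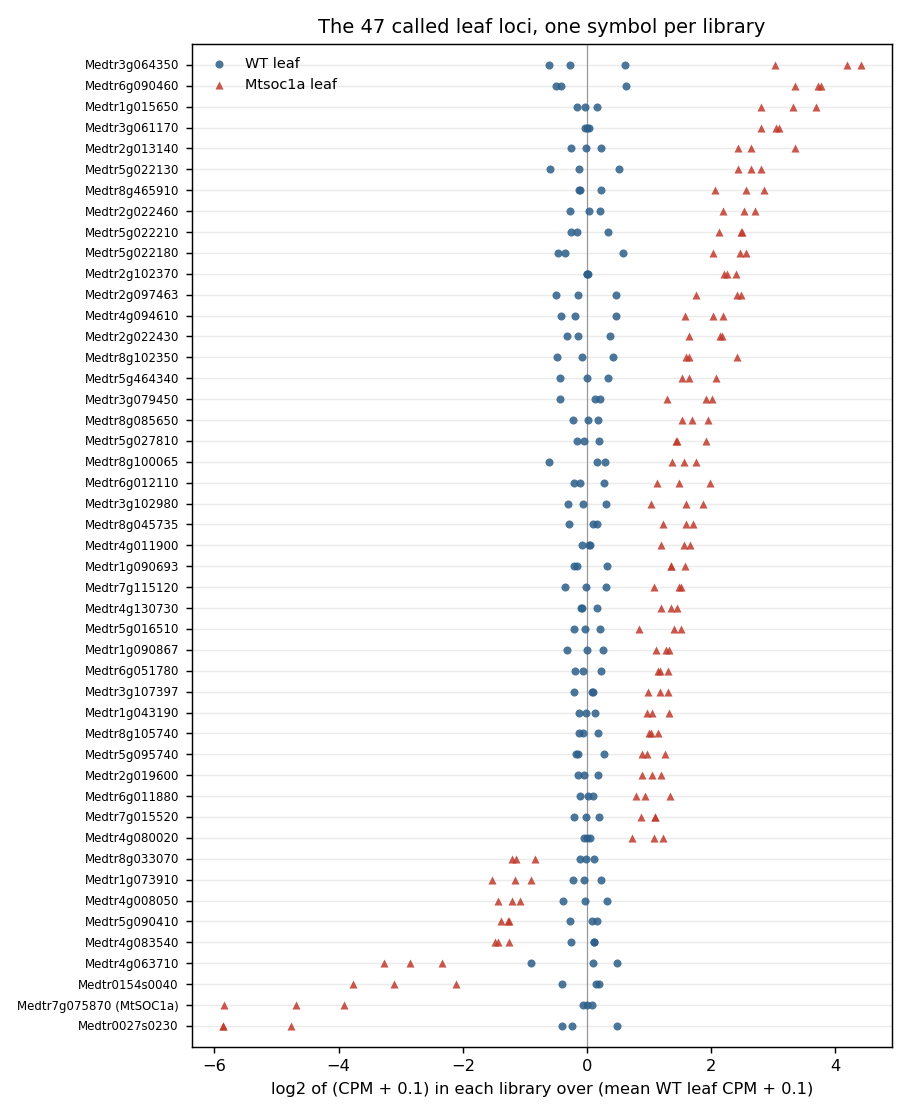
Level of each of the 47 called loci in every leaf library, as the log2 ratio of its CPM to the mean WT leaf CPM, with 0.1 CPM added to both. Circles are WT and triangles *Mtsoc1a*. No row has overlapping genotypes, and the rows run from Medtr3g064350 (log2 fold change 4.09) to Medtr0027s0230 (-7.09).

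The 9 lower loci included *MtSOC1a*. Medtr0027s0230 had 4, 0 and 0 counts in *Mtsoc1a* leaf and 175, 164 and 256 counts in WT leaf (log2 fold change -7.09, SE 0.73, adjusted p = 0.0103). Summed WT counts were 146 times those of *Mtsoc1a* after scaling (95% interval 56.5 to 536, counting error only), and the nearest loci of the same scaffold number that were tested had log2 fold changes of 0.62, 0.79 and -0.19. This locus was thus at or near 0 in *Mtsoc1a* leaf, like *MtSOC1a* itself. The adjusted p rose to 0.0839 without *Mtsoc1a* replicate 3 and to 0.0605 without WT replicate 3. Apex counts of Medtr0027s0230 were 23, 19 and 46 for *Mtsoc1a*, 154, 421 and 101 for WT, and 0 for each library of the gene-edited triple mutant, whose genotype and older age cannot be told apart. The apex change was -2.87 (SE 0.62, unadjusted p = 0.000578, adjusted p = 0.157).

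Medtr4g063710 was at 7.45, 14.4 and 9.98 CPM in *Mtsoc1a* leaf and at 77.6, 102 and 39.002 CPM in WT leaf (-2.78, SE 0.40, adjusted p = 0.0497). Medtr0154s0040 was at 1.89, 0.526 and 0.890 CPM against 9.33, 6.39 and 9.68 CPM (-2.93, SE 0.42, adjusted p = 0.0385). Both changed more than 4-fold, and both had a wide spread within a genotype. Medtr5g090410 was at 7.68, 7.14 and 7.80 CPM in *Mtsoc1a* and at 15.4, 19.8 and 20.9 CPM in WT (-1.31, SE 0.15, adjusted p = 0.0161). Medtr4g083540 was at 3.98, 4.70 and 4.13 CPM against 9.48, 12.3 and 12.2 CPM (-1.41, SE 0.18, adjusted p = 0.02). Medtr4g008050 was at 22.4, 19.0 and 24.5 CPM against 50.8, 39.6 and 64.7 CPM (-1.23, SE 0.18, adjusted p = 0.0402). The *Mtsoc1a* libraries were close together at Medtr5g090410 and Medtr4g083540, and the larger spread was among WT libraries. Medtr8g033070 was at 7.79, 7.51 and 9.68 CPM against 17.2, 18.9 and 16.1 CPM (-1.06, SE 0.15, adjusted p = 0.0301). Medtr1g073910 was at 10.6, 6.83 and 8.90 CPM against 19.3, 17.1 and 23.4 CPM (-1.18, SE 0.19, adjusted p = 0.0477). Each of the 9 lower loci lost its call in at least 1 of the fits with a library left out.

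Several called loci lay beside each other in the order of the deposited table, which follows the locus numbers. This order is not a set of genome coordinates. Medtr5g022130, Medtr5g022180 and Medtr5g022210 were consecutive in it and rose together, with log2 fold changes of 2.65 (SE 0.27), 2.38 (SE 0.30) and 2.38 (SE 0.18) and adjusted p values of 0.0109, 0.0258 and 0.00238. Their summed level was 211, 253 and 262 CPM in *Mtsoc1a* leaf and 38.3, 35.1 and 60.3 CPM in WT leaf, a ratio of means of 5.44. The nearest tested loci on either side were not called, at 0.50 and -0.01 on the log2 scale. Medtr2g022430 (2.02, SE 0.22, adjusted p = 0.0109) lay 3 places from Medtr2g022460, and Medtr2g022480, the next locus, was at 1.46 (SE 0.37) with an adjusted p of 0.18. The sum of these 3 loci was 104, 130 and 149 CPM in *Mtsoc1a* and 27.7, 20.5 and 27.2 CPM in WT. The calls of Medtr5g022210 and Medtr2g022460 held without any 1 library. The call of Medtr5g022130 was lost without *Mtsoc1a* replicate 3 (adjusted p = 0.0922) and WT replicate 1 (0.0745), that of Medtr2g022430 without *Mtsoc1a* replicate 3 (0.0953) and WT replicate 3 (0.0767), and that of Medtr5g022180 without any of 4 libraries (*Mtsoc1a* replicates 2 and 3, WT replicates 1 and 2; 0.0689 to 0.158).

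A run of highly expressed loci on chromosome 6 by identifier was also higher in *Mtsoc1a* leaf, and it was picked out after its values were seen. Medtr6g011880 was at 1578, 2286 and 1745 CPM in *Mtsoc1a* and at 841, 922 and 969 CPM in WT (1.04, SE 0.16, adjusted p = 0.0426). Medtr6g012110 was at 83.8, 152 and 107 CPM against 33.1, 46.3 and 35.2 CPM (1.58, SE 0.23, adjusted p = 0.0402). Both were called, and at both *Mtsoc1a* replicate 2 was the highest library. Medtr6g011870, listed by the study under photosynthesis and protein-chromophore linkage, was at 4185, 5793 and 4748 CPM in *Mtsoc1a* and 2346, 2454 and 2919 CPM in WT, and missed both thresholds (0.93, SE 0.16, adjusted p = 0.0554). Medtr6g011890 (1.39, SE 0.23) and Medtr6g012080 (0.80, SE 0.16) had adjusted p values of 0.0532 and 0.102. All 5 loci with counts in this run were higher in every *Mtsoc1a* library than in any WT library. Summed, they took 1.03% of leaf counts in *Mtsoc1a* (8620, 12506 and 9785 CPM) and 0.525% in WT (4717, 5253 and 5767 CPM), a ratio of means of 1.96. Whether these loci are near-identical copies was not checked, and Salmon divides reads that copies share, so the single values are uncertain. Without *Mtsoc1a* replicate 2, Medtr6g011880 was at 0.86 on the log2 scale, under the fold threshold. Its adjusted p was 0.193 without *Mtsoc1a* replicate 3 and 0.112 to 0.175 without a WT replicate. That of Medtr6g012110 was 0.164 without *Mtsoc1a* replicate 3 and 0.0577 to 0.17 without a WT replicate. In the apex these 5 loci had log2 fold changes from -0.01 to 0.23.

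Few of the flowering candidates passed the test in leaf. Of 93 candidates, 68 were tested, 1 was higher and 1 was lower (*MtSOC1a*), which is 2.94% against 0.239% of all loci. The lower one is the gene that carries the insertion, so this share rests on 1 other locus and does not describe the candidates as a set. The median log2 fold change was 0.01, close to the 0.00 of all loci. Medtr8g105740, labelled as a trehalose phosphate synthase (TPS) gene, was the higher one. It was at 58.9, 65.5 and 60.7 CPM in *Mtsoc1a* leaf and 27.0, 28.2 and 33.4 CPM in WT leaf (1.06, SE 0.12, adjusted p = 0.0109), and the adjusted p rose to 0.0953 without *Mtsoc1a* replicate 3, 0.0745 without WT replicate 1 and 0.0507 without WT replicate 2. By category, the tested members had medians of -0.08 for MADS genes (21 tested), 0.21 for photoperiod (14), -0.0046 for gibberellin (14), 0.18 for carbohydrate (8), 0.20 for age-related (7) and -0.25 for vernalization (4). *MtSOC1a* stands in the MADS category and Medtr8g105740 in the carbohydrate category, and the other 4 categories had 0 calls by edgeR. Within the carbohydrate category, log2 fold changes ran from -0.74 (Medtr1g109620, TPS) to 1.07 (Medtr4g129270, TPS). The gene labelled *TPS1* (Medtr2g073260) was at 0.14 (SE 0.14, adjusted p = 0.781), with overlap between the genotypes. The unadjusted p was under 0.05 in 16 of the 68 loci (11 higher, 5 lower), or 23.5%, against 10.7% of all loci. DESeq2 called 5 of the 68, of which 3 were higher, the fit with a replicate block also 5, and with 1 library left out the number was 0 (without WT replicate 1) to 2.

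Photoperiod genes were the category with the most loci by number at an unadjusted p under 0.05 (5 higher and 1 lower of 14). Their share was 42.9%, against 10.7% of all loci, and the share was larger in the carbohydrate category, at 50% (4 of 8). *PHYA* (Medtr1g085160), the far-red light receptor, was at 77.2, 84.98 and 79.9 CPM in *Mtsoc1a* and 47.8, 48.7 and 49.7 CPM in WT. Its change of 0.73 (SE 0.10, adjusted p = 0.0238) passed the p threshold and not the fold threshold, and its values did not overlap. *ELF3* (Medtr8g015480), a component of the circadian evening complex in Arabidopsis, gave 424, 414 and 347 counts in *Mtsoc1a* against 168, 237 and 210 in WT (0.96, SE 0.23, adjusted p = 0.151). *LHY* (Medtr7g118330), a morning clock gene, had 32038, 32265 and 39754 counts against 46085, 42501 and 45926 (-0.35, SE 0.14, adjusted p = 0.382). *COLa* (Medtr7g018170), a CONSTANS-like gene, was at 0.53 (SE 0.16, adjusted p = 0.247). *PHYA*, *ELF3*, *LHY* and *COLa* were named after their values were seen. The last 3 did not overlap between the genotypes and did not pass the test.

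Of the gibberellin genes, a *GA20OX* gene (Medtr6g464620), which encodes an enzyme of gibberellin synthesis, had 356, 318 and 336 counts in *Mtsoc1a* leaf and 94, 185 and 91 in WT leaf (1.46, SE 0.30). Its adjusted p was 0.107 in edgeR and 0.000774 in DESeq2. Another *GA20OX* gene, Medtr1g102070, went the other way without overlap, with 21, 17 and 2 counts against 42, 33 and 22 (-1.19, SE 0.73, adjusted p = 0.618). A further one, Medtr3g096500, was at 0.03 (SE 0.63). Gibberellin-regulated protein genes (GRP) lay on both sides, with Medtr3g037750 at 1.06 (SE 0.29, adjusted p = 0.216) and Medtr3g113890 at -1.18 (SE 0.28, adjusted p = 0.153), and DESeq2 called both (adjusted p = 0.0244 and 0.0152). These genes were named after their values were seen.

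The genes of the RT-qPCR panel were followed in the leaf libraries. Of 21 such genes, 12 were tested in leaf and only *MtSOC1a*, the gene that carries the insertion, was called (8.33%, against 0.239% of all loci). At that share over all loci, the lack of calls among so few other genes says little about the panel. The leaf-expressed *FT* genes were low and overlapped between genotypes. *MtFTa1* (Medtr7g084970) gave counts of 28, 7 and 61 in *Mtsoc1a* against 30, 15 and 48 in WT (0.00, SE 0.72), and *MtFTb1* (Medtr7g006630) and *MtFTb2* (Medtr7g006690) were at -0.40 (SE 0.54) and -0.15 (SE 0.55). With standard errors of 0.54 to 0.72, a 2-fold change of an *FT* gene was not detectable at this depth. *MtAP3b* (Medtr5g021270), a floral organ gene, gave 570, 581 and 603 counts in *Mtsoc1a* against 415, 469 and 428 in WT (0.44, SE 0.15, adjusted p = 0.328). *MtAP1* (Medtr8g066260) had 54, 15 and 61 counts against 78, 64 and 90 (-0.85, SE 0.47, adjusted p = 0.572). Both had no overlap between the genotypes and did not pass the test. *MtFULa* (Medtr2g461760) was at 0.85 (SE 0.60), *MtFULb* (Medtr4g109830) at -0.76 (SE 0.41), *MtSVPc* (Medtr5g066180) at 0.47 (SE 0.65) and *MtSWN* (Medtr1g086980) at -0.22 (SE 0.12), with adjusted p values of 0.555 to 0.854. *MtFTa2*, *MtFTc*, *MtFULc*, *MtAP1b*, *MtLFY*, *MtTFL1a*, *MtTFL1c*, *MtFDa* and *MtBFT* had at most 12 counts in any leaf library and were not tested.

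Homologs of genes bound by SOC1 in Arabidopsis were examined as a further list. Of 189 loci tested, 1 was higher and 0 were lower, with a median of -0.08, an unadjusted p under 0.05 in 13 higher and 19 lower loci, and 4 higher and 1 lower by DESeq2 (3 and 1 with a replicate block). The called share was 0.529%, against 0.239% of all loci, and the share at that unadjusted p was 16.9%, against 10.7%. The called locus was Medtr4g094610, a homolog of the leucine-rich repeat receptor kinase gene AT4G08850. It had 160, 223 and 230 counts in *Mtsoc1a* leaf and 51, 36 and 65 in WT leaf (2.03, SE 0.31, adjusted p = 0.0421). Its call held only without *Mtsoc1a* replicate 1, with an adjusted p of 0.0801 without *Mtsoc1a* replicate 2, 0.203 without replicate 3, and 0.172, 0.106 and 0.064 without WT replicates 1, 2 and 3. The 63 tested homologs of AT4G08850 had a median of -0.04. Medtr1g093600, a homolog of AT1G68840, a *TEMPRANILLO*-type repressor of *FT* in Arabidopsis, was named after its values were seen. It was at 46.9, 81.2 and 66.6 CPM in *Mtsoc1a* leaf and at 5.54, 10.8 and 18.6 CPM in WT leaf (2.49, SE 0.44), with no overlap. Its adjusted p was 0.0933 in edgeR (0.0652 to 0.287 with 1 library left out), 0.0216 with all 12 libraries of 15-day-old plants in 1 fit, and 1.71e-09 in DESeq2. Another listed homolog of AT1G68840, Medtr5g053920, was at 0.20 (SE 0.22, adjusted p = 0.809), and its values overlapped between the genotypes.

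**Figure D4:**
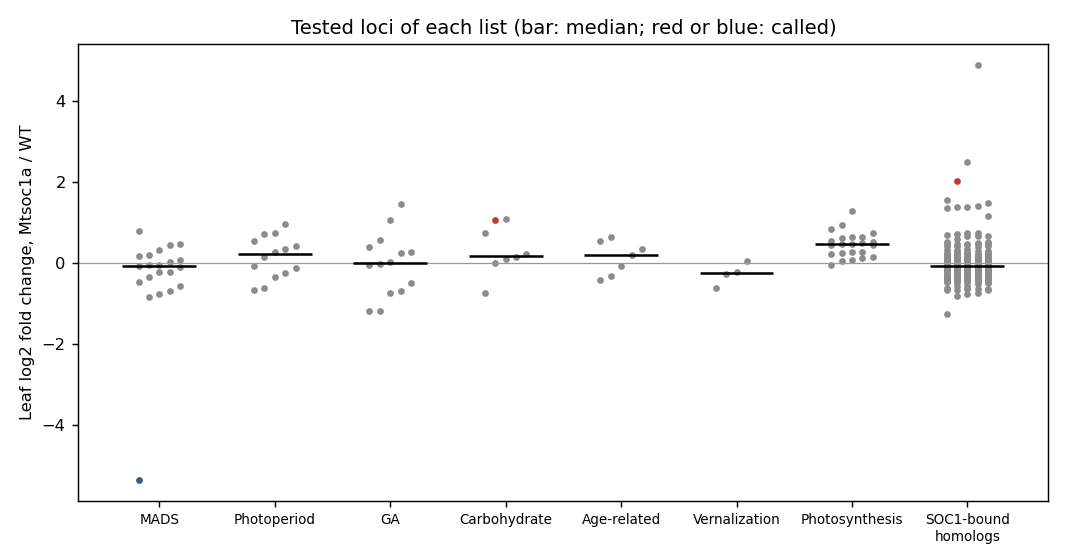
Leaf log2 fold change between *Mtsoc1a* and WT (vertical axis) of each tested locus of the flowering categories, the photosynthesis term and the homologs of SOC1-bound genes. Each point is 1 locus, bars are medians, and red or blue points were called higher or lower. The medians lie between -0.25 and 0.21 except for photosynthesis, at 0.46.

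The study lists 24 loci under photosynthesis, a term it chose on the apex libraries of the triple mutant. In leaf, 23 were tested and 0 were called (7 with an unadjusted p under 0.05, all higher, and 0 called by DESeq2). Their median was 0.46, and 22 of the 23 were above 0, against 50.9% of all loci. Joined with the protein-chromophore linkage term, the loci summed to 5173, 6940 and 5829 CPM in *Mtsoc1a* leaf and 3213, 3425 and 3848 CPM in WT leaf, and Medtr6g011870 alone made up most of this. Without it the sums were 988, 1146 and 1081 CPM against 867, 971 and 929 CPM, still without overlap, and the median of the others was 0.45. Every other term of the study's lists also had 0 calls by edgeR, and their medians, over few loci each, lay on both sides of 0. Among the terms from the *Mtsoc1a* apex, the medians were 1.71 for abscisic acid-activated signaling (3 tested), 1.33 for regulation of phosphatase activity (4), 0.94 for defense response (7), -0.26 for hydrogen peroxide catabolism (2) and -0.28 for carbohydrate metabolism (7). The first 3 of these terms had the same highest value, 1.85, so they share loci and are not separate results. They had 0, 0 and 1 loci at an unadjusted p under 0.05. Among the terms from the triple mutant apex, all 6 tested loci of abscisic acid metabolism were above 0 (median 0.71, 0 called) and all 4 of nitrate assimilation were below 0 (median -0.82, 0 called), as were all 3 of chitin catabolism (median -0.81). Cellular respiration (11 tested) had a median of 0.27, xyloglucan metabolism (10) 0.15, flavonoid synthesis (5) 0.03, protein-chromophore linkage (11) 0.47, response to oxidative stress (19) -0.04 and response to abscisic acid (13) 0.06.

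The levels of the 47 loci in WT leaf ranged widely. By the authors' single TPM value for WT leaf, which allows for transcript length and has no replicate spread, they lay from the 5.28th percentile (Medtr4g094610, 0.23 TPM) to the 99.4th percentile (Medtr6g011880, 941 TPM) of the loci tested. On the CPM scale set over all libraries, 10 of the 38 higher loci were at least 2-fold above WT apex in WT leaf, and 15 were at least 2-fold above WT leaf in WT apex. Such counts depend on the scale. Medtr3g061170 was at 4.59 CPM in WT leaf and 2.10 CPM in WT apex, but at 8.18 and 7.73 by the authors' TPM. The higher loci thus included transcripts of both kinds. Medtr2g013140 is an example of the second kind, at 5.92 ± 0.88 CPM in WT leaf, 43.2 ± 14.6 CPM in *Mtsoc1a* leaf and 417 ± 148 CPM in WT apex (SD, n = 3). Of the 9 lower loci, 6 were at least 2-fold above WT apex in WT leaf. The same shares over all loci tested are not given here, and WT leaf values also entered the calls. These counts therefore do not set the 47 loci apart from other loci.

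All 47 loci were also tested in the apex, in a fit of the 12 libraries of 15-day-old plants in which 0.0782% of loci were called. The lower loci were mostly lower there too. Of the 9, 8 were below 0 with a median of -0.97 (57.0% of all loci were below 0), 7 were lower at an unadjusted p under 0.05 (3.99% of all loci), and *MtSOC1a* alone was called (-4.39, SE 0.44, adjusted p = 0.0018). Of the 38 higher loci, 0 were called higher in the apex by edgeR and 1 by DESeq2, 28 were above 0 (42.8% of all loci), and 3 were higher at an unadjusted p under 0.05 (3.3% of all loci), with a median of 0.10 against -0.04 for all loci. WT apex replicate 2 was the highest WT apex library at 29 of these 38 loci (76.3%), against 37.0% of all loci. Its level was 1.80 times the mean of the other 2 WT apex libraries in the median higher locus, against 1.00 over all loci above 0.5 CPM in WT apex. Medtr2g022430, for example, had 749, 4165 and 722 counts in WT apex and 3334, 2290 and 2789 in *Mtsoc1a* apex.

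Without WT apex replicate 2, a choice made after seeing these values, 35 of the 38 higher loci were above 0 in the apex (41.9% of all loci) and 18 had an unadjusted p under 0.05 (4.24% of all loci were higher at that p). Their median apex change was then 0.47, and 2 were called, Medtr2g022430 (1.96, adjusted p = 0.00617) and Medtr5g027810 (2.65, adjusted p = 0.0289). Medtr2g102370 stayed under the fold threshold (0.91, adjusted p = 0.0289). Without WT apex replicate 1, 15 of the 38 were above 0 and the median was -0.08. Leaving out 1 of the other 4 apex libraries gave medians of 0.06 to 0.14. The apex values of the higher loci thus depended on WT apex replicates 1 and 2. WT apex replicate 2 also had 17 counts of *AP1* and 0 of the floral organ gene *PI*, against 133 and 31 in replicate 1 and 140 and 6 in replicate 3. The part of this difference in the apex values was not tested.

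**Figure D5:**
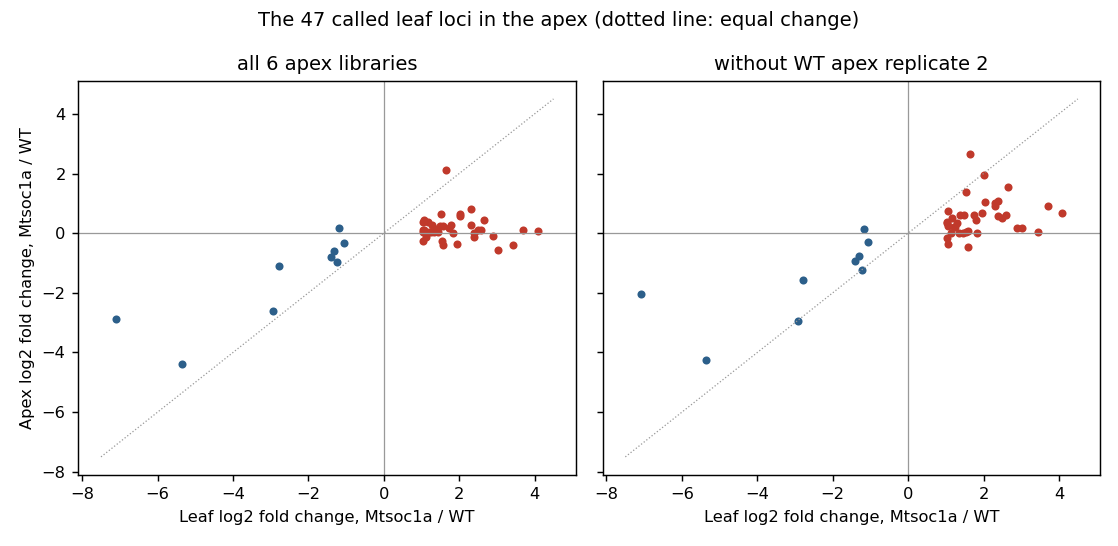
Log2 fold change between *Mtsoc1a* and WT in leaf (horizontal axis) and apex (vertical axis) of the 47 called leaf loci, with all 6 apex libraries (left) and without WT apex replicate 2 (right). Red points were higher and blue points lower in leaf, and the dotted line marks an equal change. The median apex change of the red points was 0.10 on the left and 0.47 on the right.

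The difference between the leaf and the apex effect was tested directly, as an interaction over the 12 libraries, and 0.0608% of loci were called. Of the 47 loci, 6 were among them, all with a higher log2 fold change in leaf than in apex. The 47 were selected on the same leaf libraries that enter this contrast, most of them for a higher level in *Mtsoc1a* leaf. A called difference and its sign were thus favoured by the selection, and this count does not set the 47 apart from other loci. Medtr1g015650 had 248, 327 and 484 counts in *Mtsoc1a* leaf and 43, 28 and 29 in WT leaf, but 1430, 1487 and 1882 in *Mtsoc1a* apex and 1688, 3360 and 1534 in WT apex, a difference of effects of 3.82 (SE 0.45, adjusted p = 0.011). For Medtr2g013140 the difference was 2.98 (SE 0.40, adjusted p = 0.0259) and for Medtr2g022460 2.38 (SE 0.37, adjusted p = 0.0487). The other 3, Medtr8g100065, Medtr1g090693 and Medtr2g019600, had differences of 1.97, 1.39 and 1.29 (adjusted p = 0.0436, 0.0436 and 0.0235). Without WT apex replicate 2, 11 of the 47 were called, and without *Mtsoc1a* apex replicate 1, *Mtsoc1a* apex replicate 3 or WT apex replicate 3 it was 1, and without *Mtsoc1a* apex replicate 2 it was 0. For the other 41 loci a difference between leaf and apex was not shown.

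At the level of transcripts, 11 of 21993 were called higher (0.05%) and 0 lower in leaf, 2022 reached an unadjusted p below 0.05, and 122 were higher and 104 lower by DESeq2. The 11 transcripts belonged to 11 of the 47 loci, the 9 that kept their call and Medtr4g011900 and Medtr4g130730. Of the 47 loci, 43 have 1 annotated transcript, so the same counts entered both tests. For 10 of these 43 the transcript was called, and the adjusted p values of the 43 transcripts ran from 0.00162 to 0.139.

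Some features were at 0 in every library of 1 genotype. With at least 10 counts in each library of the other genotype, 2 loci were at 0 in *Mtsoc1a* leaf and 0 loci were at 0 in WT leaf, and neither of the first was called by edgeR. Medtr0079s0070 had 0 counts in each *Mtsoc1a* leaf library and 1442, 741 and 2879 in WT leaf (adjusted p = 0.108 in edgeR, 1.63e-15 in DESeq2). Apex counts were 1118, 705 and 0 for *Mtsoc1a* and 3641, 2283 and 4689 for WT. Medtr4g117120 had 14, 37 and 17 counts in WT leaf (adjusted p = 0.104 in edgeR, 0.000446 in DESeq2). Among transcripts, 22 were at 0 in *Mtsoc1a* leaf and 6 in WT leaf by the same rule. Several came from loci whose sum hardly moved. Medtr5g089190.2, for example, had 103, 106 and 90 counts in WT leaf and 0 in *Mtsoc1a* leaf, while its locus was at -0.10 on the log2 scale. The division of reads between isoforms by Salmon makes such single transcripts uncertain.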

How the data were processed

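RNA of 15 libraries was sequenced as 150 bp paired-end reads from strand-specific polyA libraries. The authors used fastp for trimming and Salmon 0.8.2, with Mt4.0v2 as the transcriptome, for quantification. The deposited estimated counts (1.15% not whole) were rounded and summed to loci. The deposited TPM table holds 1 value per group and was not tested. Tests were run in R 4.3.3 with edgeR 4.0.16 (TMM, filterByExpr at a minimum count of 10, robust quasi-likelihood F-test), with DESeq2 1.42.0 as an alternative. The script was checked on simulated leaf counts, with 100 loci changed 2-fold and 100 changed 4-fold among 19706. edgeR called 41 and 90 of these, and 9 unchanged loci. DESeq2 called 47 and 97, and 30 unchanged loci. A change near 2-fold can thus go uncalled, and the larger number of DESeq2 calls came with more false ones in this check. Pooled leaves are the replicates, and ratio intervals cover counting error only.

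Named genes were the RT-qPCR genes, the 15 higher and 15 lower called loci with the smallest p and no overlap, called members of the lists, and called loci near each other in table order, with others marked as chosen after their values were seen. Members and lists were chosen with earlier results of these data known. The lists came from the study, and lists by product name could not be applied, since 0 identifiers matched the reference gene table. Alternatives were DESeq2, its size factors, other filters, no fold threshold, a replicate block, a 12-library fit and each library left out.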

Additional observations from a re-analysis of the deposited data

Results flagged for a closer look

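At 6 of the 47 leaf loci the effect of *Mtsoc1a* differed between leaf and apex by the interaction test. The log2 fold change, not the level, was the higher one in leaf at each of them. The log2 differences were 3.82 for Medtr1g015650, 2.98 for Medtr2g013140, 2.38 for Medtr2g022460, 1.97 for Medtr8g100065, 1.39 for Medtr1g090693 and 1.29 for Medtr2g019600. With each of the 12 libraries left out in turn, Medtr1g015650 kept its call in 10 fits (adjusted p of up to 0.0707), Medtr2g019600 in 8 (up to 0.0767), Medtr2g013140 in 4 (up to 0.0955), Medtr8g100065 in 4 (up to 0.136), and Medtr2g022460 and Medtr1g090693 in 2 each (up to 0.166). The direction of all 6 was the same in every one of these fits. The 47 loci were selected on the same leaf libraries, which favoured such differences, so the kept direction is not separate evidence.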

How the results depend on the processing

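The number of leaf loci called, 47, was 48 with DESeq2 size factors and 53 with a minimum count of 50, and it moved to 228 with DESeq2, 80 without a filter, 107 with 12 libraries in 1 fit and 77 without the fold threshold, and 11 to 74 with 1 library left out. The number of transcripts, 11, moved to 226 with DESeq2, 19 without a filter, 18 with a minimum count of 50 and 71 with 12 libraries, and 2 to 10 with 1 library left out. The 14 loci with a leaf effect unlike the apex effect became 218 with DESeq2 and 1 to 39 with 1 library left out. Of the 47 loci, 47 stayed called with DESeq2, 44 without a filter, 36 with 12 libraries and 11 to 41 with 1 library left out. A replicate block gave 257 loci, 46 of the 47 among them, 47 transcripts and 39 loci for the leaf-apex difference. Deviations of same-numbered leaf libraries correlated at 0.434, 0.505 and 0.130 on log2(CPM + 1). Libraries of different numbers correlated at -0.448 to 0.0651. With a prior count of 2 the same-numbered pairs were at 0.345, 0.381 and 0.0767, against at most 0.0632 for different numbers. For loci, each same-numbered pair thus lay above every other pair on both scales. For transcripts with a prior count of 2, the third pair was at -0.0424, against up to 0.0598 for different numbers. Whether the numbers pair the samples cannot be told from the labels. The unblocked fit was kept, and the block counts are given beside it. *MtSOC1b* (Medtr8g033250) turned to -0.23 without WT replicate 1 (-0.23 to 0.81 with 1 library left out), and *MtSOC1c* (Medtr8g033220) to 0.23 without WT replicate 2 (-0.69 to 0.23). Its transcripts Medtr8g033220.1 and Medtr8g033220.2 were at -0.97 and 0.92, with adjusted p values of 0.887 and 0.938. The cause of these shifts was not tested.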
